A study of Rattus norvegicus with 4 samples.

Results

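Car1, Car2 and Car3 are cytosolic carbonic anhydrases, and they were represented in this data set by every probe whose annotation gave one of these gene symbols alone, after symbols were updated through Entrez identifiers. This gave 3 genes and 5 probes, out of 958 genes and 1936 probes in all. Car3 had probes 1266 and 1635, Car2 had probes 94 and 1775, and Car1 had probe 1385. The genes were chosen by their mean ratios between the ANIT and olive oil pools on these same 4 arrays, so those ratios are given as a description and no test was made.

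The livers came from male Sprague-Dawley rats weighing 250 to 300 g, killed 18 h after a single intraperitoneal injection. One group received alpha-naphthylisothiocyanate (ANIT, 75 mg/kg, as a 7.5 mg/mL solution in olive oil), a toxicant that injures bile duct cells and stops bile flow in rats, and the other received the same volume of olive oil. RNA from the right lateral lobe of 3 rats was mixed into 1 pool per treatment. That single pair of pools was hybridised to 4 two-colour cDNA arrays. Arrays 1 and 3 carried the ANIT pool in Cy5, and arrays 2 and 4 carried it in Cy3.

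Carbonic anhydrases are zinc enzymes that interconvert carbon dioxide and bicarbonate, and the family includes cytosolic, mitochondrial and membrane-bound members. Car2 is a very fast enzyme found in many tissues, Car1 is best known from red blood cells of human and mouse, and Car3 is a slow enzyme that is abundant in skeletal muscle, adipocytes and the liver of male rats. Hepatic Car3 in rats is much higher in males than in females and depends on the male pattern of growth hormone secretion. Car3 also carries reactive cysteines that form mixed disulfides with glutathione under oxidative stress.

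All values are log2 ratios of the ANIT pool over the olive oil pool. This direction is likely but not stated: ANIT is the treatment named in each sample title and the second channel of each array. The log base is not stated either, and base 2 was assumed. Each array was centred on the median of its 1936 probes, and the mean of each dye orientation was taken before the mean of both. Errors are SDs between the arrays that share an orientation (n = 4 arrays, pooled). They leave out any gap between the orientations and cover hybridisation alone, because the treatment had 1 replicate, and the small number of arrays limits the precision.

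All 3 genes were lower in the ANIT pool than in the olive oil pool. Car3 had a mean log2 ratio of -2.74 ± 0.016 (SD, n = 4 arrays), which is 6.67-fold lower or 15.0% of the olive oil level. Car1 had -1.35 ± 0.082 (2.55-fold lower, 39.3% of the olive oil level), and Car2, averaged over probes that disagreed, had -1.14 ± 0.084 (2.21-fold lower, 45.2%). Each passed 2-fold with a negative centred value on every array, as did 11 of the 958 genes in all (1.15%), while 12 (1.25%) passed it with a positive value on every array. Since this contrast chose the genes, nothing is read from that comparison of counts. Car2 lay under 2-fold on the values as deposited (-0.99) and with ANIT in Cy5 alone (-0.88). If the table held ratios of Cy5 over Cy3 on every array, none of the 3 genes would pass 2-fold, with 0.55 for Car3, 0.26 for Car2 and 0.027 for Car1. In order from the lowest ratio, Car3 was the 2nd, Car1 the 7th and Car2 the 8th of 958 genes. In these pools of bulk tissue, fewer cells of a type and less RNA per cell cannot be told apart.

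Car3 was read by a pair of probes that gave close values. As deposited, probe 1635 had -2.74, -2.50, -2.78 and -2.60 on arrays 1 to 4, and probe 1266 had -2.68, -2.37, -2.66 and -2.36. Probe 1635 was the lower of them on every array, by 0.066 to 0.24. Their means after centring were -2.81 ± 0.046 and -2.67 ± 0.015, or 7.0-fold and 6.36-fold lower. Only 4 probes of the table lay at -2 or lower on all 4 arrays as deposited. These were both Car3 probes, probe 94 of Car2 and the probe of Scd, a fatty acid desaturase gene.

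The dye mattered less to Car3 than to most probes. As deposited, the gene stood at -2.71 and -2.72 with ANIT in Cy5 and at -2.43 and -2.48 with ANIT in Cy3. That is a dye difference, Cy5 orientation less Cy3 orientation, of -0.26, where the median over all probes was -1.25. Centring therefore pulled its orientations apart, to a mean of -2.18 with ANIT in Cy5 and -3.29 with ANIT in Cy3. The SD of 0.016 does not include this gap of 1.11. The ratio was at least 5.39-fold lower on every array as deposited, and the sign was the same on all 4 arrays with or without centring.

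**Figure D1:**
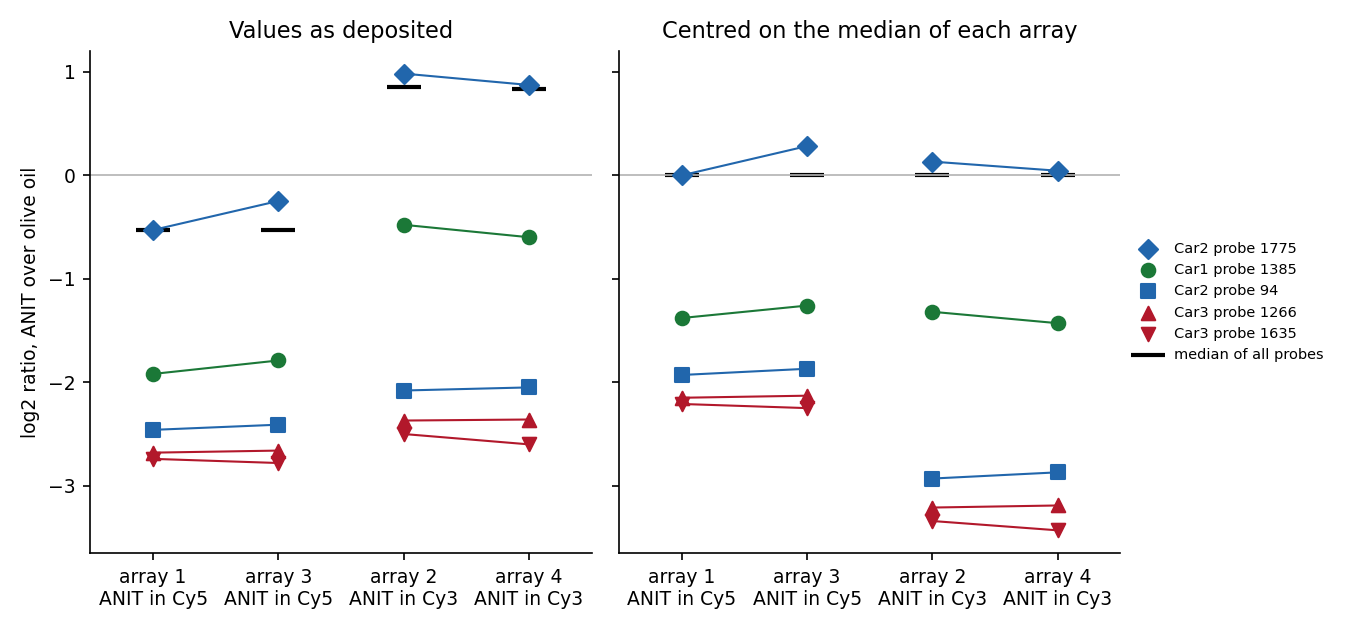
Log2 ratio of the ANIT pool over the olive oil pool for the 5 carbonic anhydrase probes on each array, as deposited (left) and after centring on the array median (right). Lines join the arrays of one dye orientation and black bars mark the median of all probes. Both Car3 probes and Car2 probe 94 lie low on all 4 arrays, Car1 lies between, and Car2 probe 1775 follows the array median.

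The Car2 probes did not give the same result. Probe 94 had -2.46, -2.08, -2.41 and -2.05 on arrays 1 to 4 as deposited, with a centred mean of -2.40 ± 0.039, or 5.28-fold lower. Probe 1775 had -0.53, 0.98, -0.25 and 0.87, close to the medians of all probes on those arrays (-0.53, 0.85, -0.53 and 0.83), and its centred mean was 0.11 ± 0.15. Its values on the centred arrays lay on both sides of 0, from -0.0022 to 0.28. The difference within an array, probe 94 less probe 1775, does not depend on centring and was -1.93, -3.06, -2.15 and -2.92. It had the same sign on all 4 arrays but was smaller in size with ANIT in Cy5 (arrays 1 and 3). The SD of probe 94 leaves out a gap of 1.00 between its centred orientation means. These were -1.90 with ANIT in Cy5 and -2.90 with ANIT in Cy3. On every array the difference between the probes was larger in size than that gap.

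Of the 340 genes with more than 1 probe, Car2 had the widest range between probe means, 2.51 on the log2 scale. The median range was 0.14 and the 90th percentile was 0.55. Wt1 followed with 2.10, and 10 genes in all had a range over 1. Car3, with 0.14, stood at rank 177 of 340. The gene value of -1.14 for Car2 is therefore the midpoint of probes that disagree and describes neither of them. With the probe of the smallest SD in place of the average, Car2 had -2.40.

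**Figure D2:**
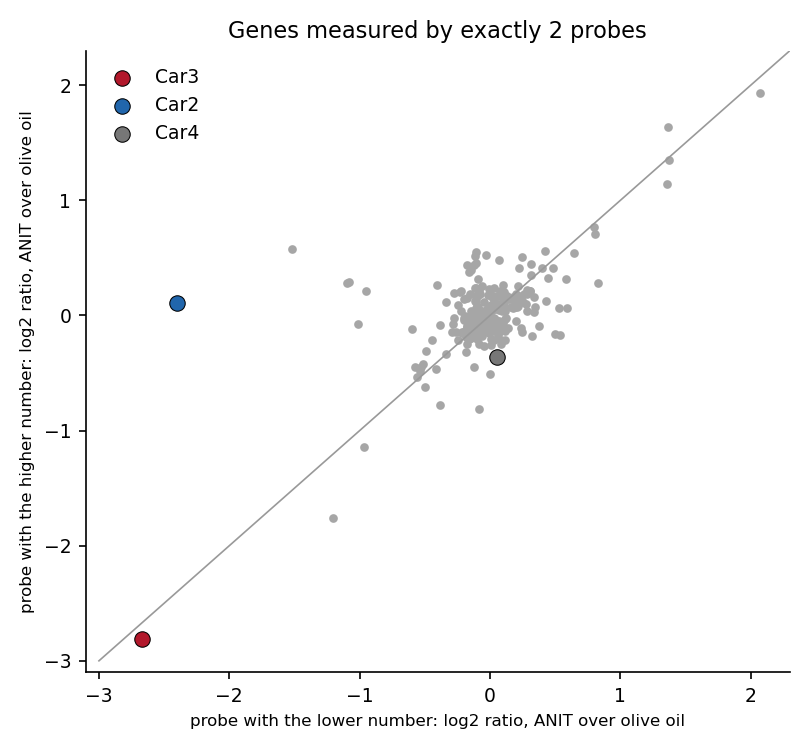
Mean centred log2 ratios, ANIT over olive oil, of both probes for the 261 genes with exactly 2 probes. The line marks equal values. Car3 lies near the line at its lower end, Car4 lies near its centre, and Car2 lies far from it, with -2.40 for probe 94 and 0.11 for probe 1775.

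Across the 4 arrays, Car2 probe 94 was more like the Car3 probes than any other probe of the table. Likeness was measured as the root mean square difference of centred log2 ratios over the 4 arrays, among all 1936 probes. From probe 94 it was 0.270 to probe 1266 and 0.418 to probe 1635, against 0.699 to the next nearest probe, one of Fads2. Seen from the Car3 probes, the Scd probe came next after probe 94. It lay 0.566 from probe 1266 and 0.441 from probe 1635, so for probe 1635 it was nearly as close. The difference between probe 94 and the other Car2 probe was 2.56. Probes 1635, 1266 and 94 had the 2nd, 3rd and 4th lowest means of the 1936 probes. The measure includes the level by which the genes were chosen, so this nearness is no separate result. On each array, probe 94 lay 0.25 to 0.43 above the mean of the Car3 probes, so its ratio was less low in every hybridisation. Whether these cDNA probes tell the related transcripts apart was not tested.

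Car1 had a single probe and a different dye pattern. As deposited it had -1.92 and -1.79 on arrays 1 and 3, with ANIT in Cy5, and -0.48 and -0.60 on arrays 2 and 4, with ANIT in Cy3. Its dye difference of -1.31 was close to the median of all probes (-1.25), so that centring brought all 4 arrays together at -1.38, -1.32, -1.26 and -1.43. All 4 values lay within 0.17 of each other, and the orientation means differed by 0.055. Car1 lay above Car3 on every array, by 0.80 to 1.95. Against the gene value of Car2, the Car1 value was lower on arrays 1 and 3 (-1.38 and -1.26 against -0.97 and -0.80) while the values were close on array 2 (-1.32 against -1.40) and array 4 (-1.43 against -1.42). The order of these neighbours turned on array 2 alone, and it compares Car1 with an average of Car2 probes that disagreed.

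Ratios past 2-fold were unevenly spread over the range of dye differences, and the carbonic anhydrase probes took different places in it. Of the 484 probes with the most negative dye differences, 0 were at least 2-fold lower and 0 higher. Of the next 484, with dye differences of -2.17 to -1.25, the Car1 probe was the 1 that was lower, and 3 were higher. Probes 94 and 1266 lay in the following 484, which held 7 lower and 15 higher probes. Probe 1635 lay in the last 484, which held 10 lower and 12 higher. Over the table, 18 of 1936 probes (0.930%) were at least 2-fold lower, 4 of the 5 carbonic anhydrase probes among them, and 30 (1.55%) were at least 2-fold higher. Car2 probe 1775 had nearly the same dye difference as the Car1 probe (-1.31 for both), and Car1 was lower than it by 1.38 to 1.54 on the 4 arrays. Spot brightness was not analysed here, so its part in these values was not tested.

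**Figure D3:**
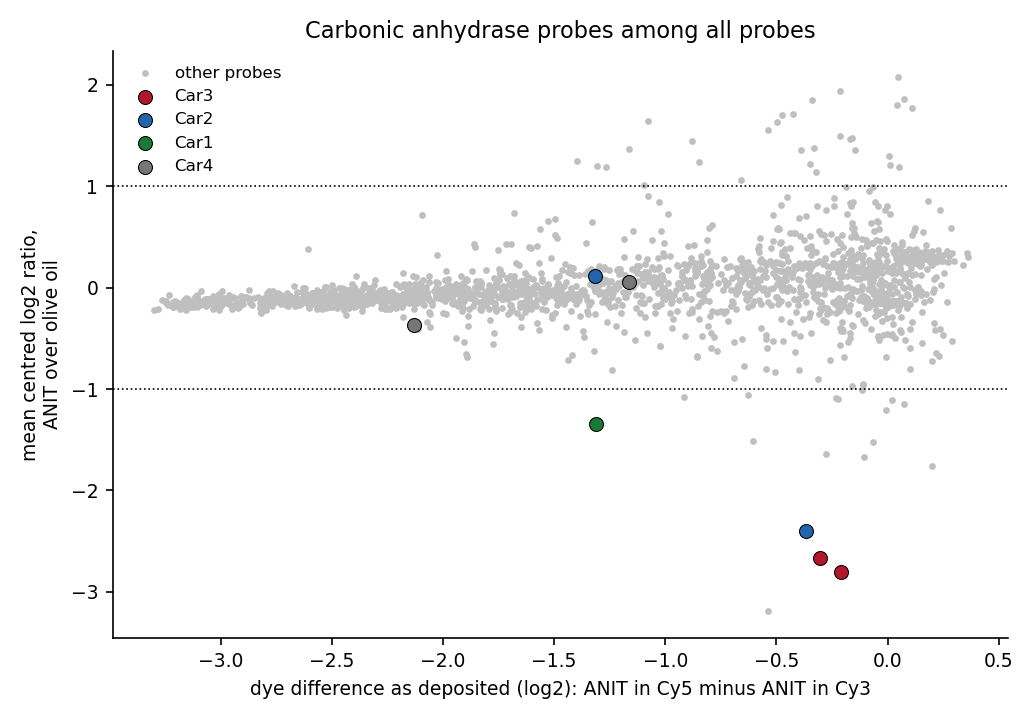
Mean centred log2 ratio, ANIT over olive oil, against the dye difference as deposited for all 1936 probes. Dotted lines mark 2-fold. Both Car3 probes and Car2 probe 94 lie together at the bottom right, and the Car1 probe lies alone below the other probes near -1.31 on the horizontal axis.

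Genes were compared by the root mean square difference over the 4 centred arrays. Car3 was nearest to Scd (0.502), then Fgfr3 (1.08), Tsc22d1 (1.10), Avpr1a (1.26) and Fads2 (1.29). In order from the lowest ratio, these genes were the 1st, 3rd, 4th, 5th and 6th of 958. The difference includes the mean level by which the carbonic anhydrases were chosen, so nearness among low genes is no separate result. Scd and Fads2 encode fatty acid desaturases, Fgfr3 encodes a fibroblast growth factor receptor and Avpr1a a vasopressin receptor. Car1 was nearest to the Car2 average (0.314), Avpr1a (0.462), F2r (0.474), Tsc22d1 (0.601) and Pklr (0.621). Neither Car2 probe by itself was near Car1, with a difference of 1.16 for probe 94 and 1.46 for probe 1775. The Car2 average was nearest to F2r (0.194), a thrombin receptor gene, followed by Car1 (0.314), Pklr (0.336), Slc28a2 (0.357) and Gckr (0.365). All 4 arrays share 1 pair of pools, so this likeness describes 4 hybridisations of the same RNA.

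Car4, a membrane-anchored carbonic anhydrase, was the other measured member of the family, and 12 of the 16 listed members had no named probe. It was not at least 2-fold apart. Its probes had -0.36 ± 0.065 and 0.053 ± 0.15, and the gene had -0.16 ± 0.044. Probe 1256 of Car4 stood at -0.79 and -0.71 with ANIT in Cy5 and at -0.034 and 0.070 with ANIT in Cy3, so that its lower value came from one dye orientation.

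In the rat assembly GRCr8, Car2, Car3, Car1 and Car13 are consecutive protein-coding genes on chromosome 2. Car13 had no named probe. The nearest measured genes were not adjacent to them, lying 21 to 98 genes from Car2 on one side and 22 to 37 on the other. On the Car2 side they were Cct5 (0.41 ± 0.16), Sub1 (-0.093 ± 0.051) and Ptger4 (-0.054 ± 0.018). On the Car13 side they were Fabp4 (-0.15 ± 0.051), Fabp5 (-0.11 ± 0.053) and Pex2 (-0.020 ± 0.038). All 6 lay between -0.15 and 0.41, within 2-fold, as did Car2 probe 1775 (0.11). The other 4 carbonic anhydrase probes lay at -1.35 or lower. Over all genes, 1.15% were at least 2-fold lower and 1.25% higher. The carbonic anhydrases were chosen by their ratios, so nothing is read from this contrast.

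Growth hormone and male-biased liver genes were examined because hepatic Car3 belongs to them. Besides Car3, 9 of the listed genes were measured, and 0 were at least 2-fold lower or higher. Over all genes these shares were 1.15% and 1.25%, which is the background for this list and those below. Counts of 0 among so few genes say little. After centring, the means of all 9 lay below 0, as did 560 of the 955 genes left when the carbonic anhydrases are set aside. The median of the 9 was -0.13 against -0.040 for those 955 genes. Igfals, which encodes a binding partner of circulating IGF-I, had -0.56 ± 0.053 and Igf1, the growth factor itself, had -0.46 ± 0.086. After centring, both lay below 0 in one dye orientation only. Igfals had 0.0050 and 0.019 with ANIT in Cy5 and -1.09 and -1.19 with ANIT in Cy3. Igf1 had 0.15 and 0.29 with ANIT in Cy5 and -1.19 and -1.09 with ANIT in Cy3. Stat5b, the transcription factor through which growth hormone acts on liver genes, had -0.14 ± 0.10. Cyp2c12, a cytochrome P450 gene of female rat liver, had -0.15 ± 0.077. These too varied with the dye orientation. After centring, Stat5b had 0.16 and 0.090 with ANIT in Cy5 and -0.50 and -0.31 with ANIT in Cy3. For Cyp2c12 these values were -0.0020 and 0.12, and -0.41 and -0.32. As deposited, Igfals (-0.41) and Igf1 (-0.31) lay below 0 on all 4 arrays and in the mean. The means of all other genes of the 9, among them Stat5b (0.012) and Cyp2c12 (0.00041), lay above 0 as deposited. The shared sign of the 9 therefore depends on centring.

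Car2 and Car3 were also listed with genes of pericentral hepatocytes, those next to the central vein. The other 8 measured genes of that list went both ways. Cyp1a2, a cytochrome P450 gene, was counted as higher at 2.0 ± 0.025, and 0 of the 8 were lower. Aldh1a1, which encodes a retinaldehyde dehydrogenase, had 0.90 ± 0.16, and Cyp7a1, which catalyses the first step from cholesterol to bile acids, had -0.49 ± 0.014. The median of the 8 was -0.085. The 5 measured periportal genes had a median of 0.072 and ran from -0.46 (Igf1) to 0.34 (Pck1, an enzyme of gluconeogenesis), with Apoa4 at 0.18, Igfbp2 at 0.072 and Cyp2f4 at -0.25. None of them was 2-fold apart. After centring, Igf1, Apoa4 and Cyp2f4 changed sign with the dye orientation.

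Of the genes that move bicarbonate, protons or other acid and base equivalents across membranes, 4 of 36 were measured and 0 were 2-fold apart. Slc4a4, a sodium bicarbonate cotransporter, had 0.18 ± 0.038, and Slc26a1, a sulfate and bicarbonate exchanger, had -0.053 ± 0.10. The monocarboxylate transporters Slc16a1 and Slc16a7 had -0.077 ± 0.055 and -0.38 ± 0.18. Slc26a1 and Slc16a1 changed sign with the dye orientation after centring. None of the 8 listed enzymes that consume bicarbonate, such as pyruvate carboxylase and acetyl-CoA carboxylase, had a named probe.

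A list headed lipid synthesis was used because earlier results of these data showed some of its genes among the lowest. The count of its genes therefore gives no independent evidence, and the heading does not define what each gene does. Of 7 measured, 4 were counted as lower, namely Scd (-3.19 ± 0.25), Fads2 (-1.48 ± 0.30), Pklr (-1.08 ± 0.16) and Acsl1 (-1.06 ± 0.049). Fasn, the fatty acid synthase gene, had -0.40 ± 0.12. Its centred values were 0.080 and 0.28 with ANIT in Cy5 and -1.05 and -0.90 with ANIT in Cy3. The SD of Scd and Fads2 between arrays of one orientation was larger than that of Car3 (0.016) and larger than the 95th percentile of all genes (0.18). Of the 16 measured genes of glutathione and thiol defence, Mt1, a metallothionein, was counted as higher (1.80 ± 0.083) and 0 were lower. Gsta2 had 0.69 ± 0.069, Nqo1 0.66 ± 0.15, Txn1 0.50 ± 0.027 and Gstm2 -0.24 ± 0.076, and the median was 0.17. After centring, Txn1 and Gstm2 changed sign with the dye orientation. Txn1 had 1.08 and 1.11 with ANIT in Cy5 and -0.12 and -0.079 with ANIT in Cy3. For Gstm2 these values were 0.57 and 0.47, and -1.06 and -0.94. Gsta2 and Nqo1 lay above 0 on all 4 arrays.

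Other cell types that contain these enzymes were poorly covered. Of the 11 red cell symbols, the erythropoietin receptor gene Epor alone was measured (-0.019 ± 0.14), and no probe was named for a haemoglobin chain. Of the 10 skeletal muscle symbols, 0 had a named probe. Of the 7 adipocyte genes, Fabp4 (-0.15 ± 0.051) and Lpl (-0.079 ± 0.084) were measured, and of the 8 cholangiocyte genes, Clu (0.34 ± 0.043) and Spp1 (-0.12 ± 0.099). The part of red cells or muscle in the Car1 and Car3 values was not tested. The 5 measured hepatocyte markers had a median of -0.20, with Fgg at 0.79 ± 0.16, Apoa1 at -0.68 ± 0.11, Ttr at -0.20 ± 0.073, Tf at -0.20 ± 0.049 and Serpina1 at -0.13 ± 0.098. After centring, every red cell, adipocyte, cholangiocyte and hepatocyte gene named here changed sign with the dye orientation, except Fgg and Apoa1. A table of ratios gives no levels, so the labelled tissue was not checked against the hepatocyte markers. Hprt1 stood at 0.086 ± 0.027 and Actb at 0.040 ± 0.068, both spotted as housekeeping controls.

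**Figure D4:**
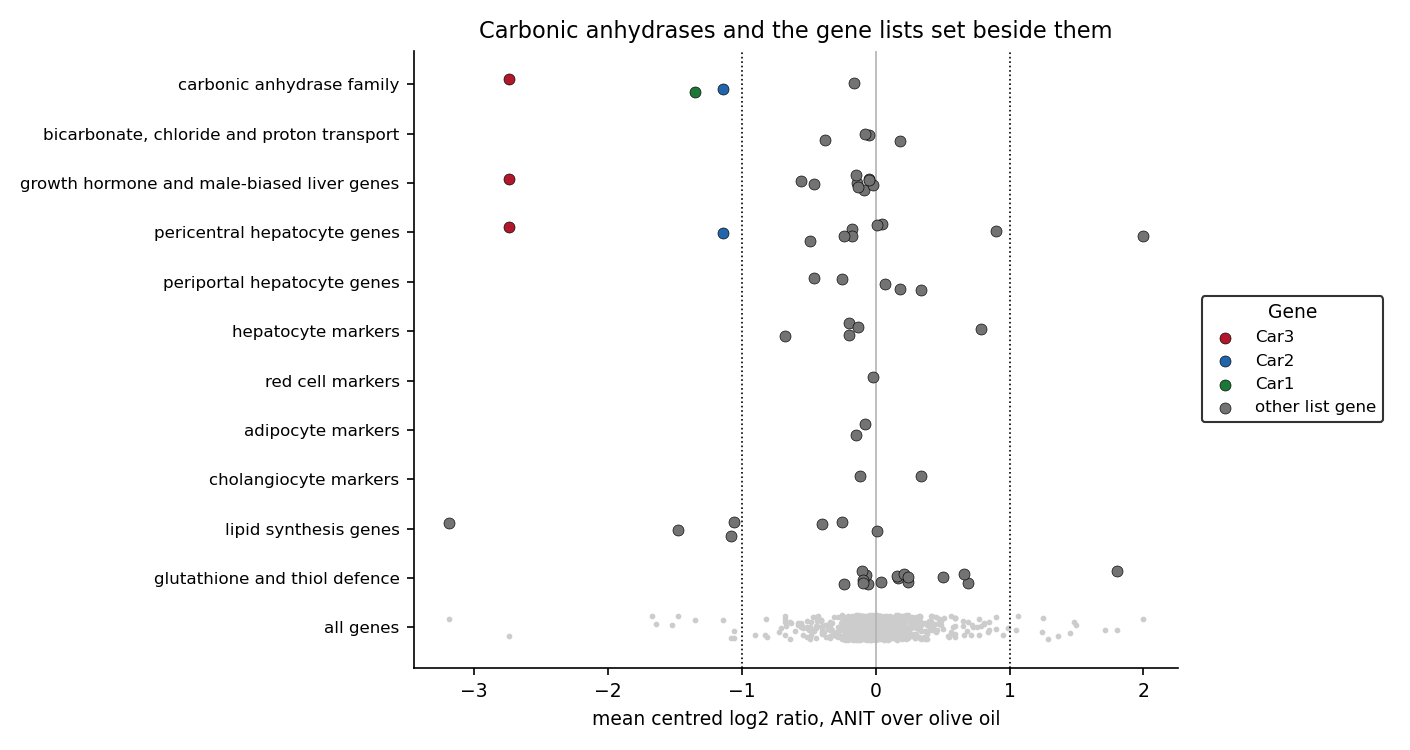
Mean centred log2 ratio, ANIT over olive oil, of each measured gene in the lists set beside the carbonic anhydrases, with all 958 genes in the bottom row. Dotted lines mark 2-fold. Outside the carbonic anhydrases, the lower genes in these lists are 4 genes of the lipid synthesis list, and Cyp1a2 and Mt1 lie above 2-fold.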

How the data were processed

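The deposited table holds log ratios, taken here as log2 values, for 1936 probes on 4 arrays without missing values. How the background was corrected, the normalization, the log base and the direction are all not stated. Per the labels, poly(A) RNA was labelled by reverse transcription with Cy3 or Cy5 nucleotides and hybridised to glass cDNA arrays of 1800 rat genes.

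The 4 arrays form a technical dye swap and count as 1 replicate. Arrays of one orientation correlated across probes with Pearson's r of 0.958 to 0.979, and opposite orientations with -0.383 to -0.370. As deposited, the array medians changed sign with the orientation, 68.7% of probes had orientation means of opposite sign and 4.75% lay below 0 on all 4 arrays. The table was read as already turned to ANIT over olive oil. That reading was chosen with the values known and was not tested, and probes with extreme means share their sign by selection.

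Of the probes, 1432 had 1 gene symbol (1429 matched to RefSeq, GRCr8), 19 had several and 485 were not listed in the annotation. Probes of a gene were averaged. A gene was counted at a mean of at least 2-fold with 1 sign on all 4 centred arrays. Named genes were the 3 carbonic anhydrase genes, the 5 nearest to each, all measured members of a list or the 5 largest by size, and housekeeping genes. Cct5, Sub1, Ptger4, Fabp5 and Pex2 were named by position, Wt1 for its probe range, and both additions followed sight of the values. The members and all 13 lists were chosen with earlier results of these data known. The counting rule was run on simulated data with the same SD for all probes and no disagreement between probes of a gene. That run does not bear on Car2 or on the direction of the ratios. Python 3.11.15, numpy 2.4.6, pandas 2.3.3 and matplotlib 3.10.9 were used.

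Alternatives were the values as deposited, Hprt1 and Actb as the centre, a dye ratio reading, the sign turned, natural logs, the median over arrays, each orientation alone, each array left out, 1 probe per gene, and 1.5-fold or 3-fold limits. Lists without the carbonic anhydrases and nearest probes were added after the values were seen.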

Additional observations from a re-analysis of the deposited data

Results flagged for a closer look

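Among 58 sets of 4 arrays examined (the 5 carbonic anhydrase probes and the named genes), Pck1 of the periportal list stood apart on array 3. There its centred ratio reached 0.80 (log2), while arrays 1, 2 and 4 gave 0.25, 0.17 and 0.16. Chance marks about 1 in 20 sets of like values, and these arrays are dye pairs. None of the 5 carbonic anhydrase probes had such a gap.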

How the results depend on the processing

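Read as a dye ratio, with arrays 2 and 4 turned in sign before centring, Car3 had 0.55, Car2 0.26 and Car1 0.027, and 0 genes were 2-fold lower or higher. The probes then had 0.53 (1266), 0.58 (1635), 0.50 (94) and 0.027 (1385). With the sign of every array turned, Car3 had 2.74, Car2 1.14, Car1 1.35, and the probes 2.67 (1266), 2.81 (1635), 2.40 (94), -0.11 (1775) and 1.35 (1385). Without centring, Car3 had -2.59, Car1 -1.20 and Car2 -0.99, which left Car2 just under 2-fold, and 7 genes were lower. Centred on Hprt1 and Actb, Car3 had -2.80. As natural logs, Car3 had -3.95, Car1 -1.95 and Car2 -1.65, and 27 genes were higher. With ANIT in Cy5 alone, Car3 had -2.18 and Car2 -0.88, under 2-fold, with 7 genes lower and 59 higher. With ANIT in Cy3 alone they had -3.29 and -1.41, with 36 lower and 6 higher. From the probe with the smallest SD, Car3 had -2.67 and Car2 -2.40. At 1.5-fold 21 genes were lower and 34 higher, and at 3-fold 4 and 3. With each array left out in turn, Car3 ran from -2.75 to -2.73, Car1 from -1.38 to -1.32 and Car2 from -1.19 to -1.10, with 11 genes lower and 12 to 13 higher, and all 3 carbonic anhydrase genes were counted as lower each time. No paired analysis was possible because all arrays carry 1 pair of pools. The cause of these shifts was not tested. Signal over background was not analysed here, so dim probes could not be set apart.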
